A study of Mus musculus with 12 samples.

Results

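The sterol and fatty acid synthesis genes followed here are 36 genes of lipid synthesis and of its regulation by SREBP transcription factors. They come from a fixed list of symbols matched to Ensembl identifiers in the count table. All 36 were found among 49585 genes, and all 36 passed the filter on low counts that left 16318 genes for testing. They comprise 19 enzymes of the mevalonate and sterol branch, 11 genes of the fatty acid branch, and 6 genes that regulate SREBP or carry sterols. RNA was sequenced from osteoblast cultures grown from the calvariae of neonatal C57BL/6J mice, after 1 or 3 days of osteogenic induction by ascorbic acid together with β-glycerophosphate, which every group received. The 12 libraries form 4 groups of 3, one for each genotype at each time, where WT is the wild type and Bcl3-/- carries a knockout of Bcl3, an atypical IκB protein that binds NF-κB p50 and p52. Each culture came from 1 to 3 calvariae per the labels and from 3 per the study's methods, and the library codes, which recur on both days, were taken to mark 6 cultures, 3 per genotype, each sampled at both times.

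Cells build cholesterol from acetyl-CoA by way of mevalonate, squalene and lanosterol, and they build saturated and unsaturated fatty acids from the same acetyl-CoA. SREBP-2, encoded by Srebf2, mainly drives the sterol genes, and SREBP-1, encoded by Srebf1, mainly drives the fatty acid genes. When membrane sterol is low, SCAP escorts the SREBP precursors to the Golgi for cleavage, and INSIG proteins hold SCAP back when sterol is high. In their target promoters SREBPs bind sterol regulatory elements and act together with NF-Y, which binds the letters CCAAT.

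The promoters of 5 members are shown because they span the range of these letters, from Mvk, with 5 CCAAT boxes in the stretch shown, to Acly, with 0. Each line gives the 180 bases before a RefSeq transcription start in GRCm38.p6, 5′ to 3′ on the strand of the gene, and none of these stretches overlaps a GENCODE exon. Capitals mark CCAAT or its reverse complement ATTGG, and in Hmgcs1 also a match to the sterol regulatory core TCACNCCAC. The stretches lie at chr13:119690171-119690350 (plus strand) for Hmgcs1, chr5:114444089-114444268 (plus) for Mvk, chr8:122443423-122443602 (minus) for Mvd, chr11:120824548-120824727 (minus) for Fasn and chr11:100528001-100528180 (minus) for Acly.
Hmgcs1: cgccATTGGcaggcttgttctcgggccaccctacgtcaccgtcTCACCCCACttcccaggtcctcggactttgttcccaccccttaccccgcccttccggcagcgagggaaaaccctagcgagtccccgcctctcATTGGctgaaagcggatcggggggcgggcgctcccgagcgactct
Mvk: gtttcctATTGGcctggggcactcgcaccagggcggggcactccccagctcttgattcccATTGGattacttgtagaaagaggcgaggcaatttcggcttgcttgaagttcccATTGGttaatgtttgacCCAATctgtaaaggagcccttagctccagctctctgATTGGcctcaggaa
Mvd: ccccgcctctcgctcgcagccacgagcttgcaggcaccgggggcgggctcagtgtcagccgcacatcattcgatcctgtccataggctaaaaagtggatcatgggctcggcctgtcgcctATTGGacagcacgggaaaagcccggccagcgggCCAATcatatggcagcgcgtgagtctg
Fasn: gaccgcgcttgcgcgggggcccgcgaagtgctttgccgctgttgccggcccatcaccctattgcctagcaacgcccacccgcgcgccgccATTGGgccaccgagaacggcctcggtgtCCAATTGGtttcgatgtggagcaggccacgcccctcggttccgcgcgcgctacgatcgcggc
Acly: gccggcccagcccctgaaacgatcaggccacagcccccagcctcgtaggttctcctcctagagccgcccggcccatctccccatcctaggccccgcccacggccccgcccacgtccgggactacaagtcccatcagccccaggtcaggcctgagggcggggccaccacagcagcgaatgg
In Fasn the letters CCAATTGG hold a pair of overlapping boxes, 1 on each strand.

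Promoter windows of 300 bases, 250 before and 50 after the start, were given for 29 of the 36 members and searched on both strands, and the windows of Fdps, Fdft1, Sqle, Stard4, Scd1, Scd2 and Fads1 were not analysed here. CCAAT was found in 15 of 16 sterol enzymes, 4 of 5 regulators and 5 of 8 fatty acid genes, or 82.8% of the 29. The share was 41.1% over all 27025 genes with a window and 42.6% over the 11477 of them that were tested. A gene was counted if any of its windows held a match, and some genes had several. By window, CCAAT was in 65.8% of the 38 member windows and in 37.4% of all 32851. Acat2 was the sterol enzyme without it, and Acly has its CCAAT 37 bases after the start, outside the stretch shown. The sterol regulatory core TCACNCCAC was found only in Hmgcs1, 3.45% of the 29 members against 1.44% of all genes. The E-box CACGTG, which SREBPs can also bind, was found in 6 members, Hsd17b7, Sc5d, Dhcr7, Scap, Insig1 and Elovl5, or 20.7% against 8.09% of all genes and 11.4% of the tested ones. In the stretches shown no match of one motif overlapped a match of another. A match here is a match of letters, not a measured binding site.

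The counts sum to between 20009732 and 41953891 reads in genes per library. Bcl3 itself did not separate the genotypes on day 1, with values of 18, 21.8 and 17.8 CPM (counts scaled to the TMM-normalised library size) for WT, against 17.5, 19.7 and 19.2 CPM for Bcl3-/-. On day 3 it was at 14.8, 15.9 and 12.8 CPM for WT, against 10.2, 9.72 and 8.31 CPM for Bcl3-/-, and the log2 fold change was -0.62 (SE 0.12, adjusted p = 0.00809 by edgeR). The genotypes below are therefore those of the labels. The 10 osteoblast markers sum to 34100 to 77900 CPM per library, most of it from the collagen genes Col1a1 and Col1a2. Runx2 had group means of 50.9 to 54.2 CPM. In day 1 WT the means were 3350 CPM for Spp1, 45.0 CPM for Alpl and 6.89 CPM for Ibsp. Bglap, Bglap2 and Dmp1 were at 0.297, 0.407 and 0.296 CPM there. Sp7 went from 59.7 CPM in day 1 WT to 12.4 CPM in day 3 WT. Of 13 adipocyte markers, Cidec and Lep were at 0 in all 12 libraries, and Adipoq, Plin1, Retn and Cfd had group means of at most 0.151 CPM. These are bulk cultures, in which fewer cells of a type and less RNA per cell cannot be told apart.

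Per exon length, the fatty acid desaturase Scd2 had the highest level of the 36 members, at a mean RPKM (CPM per kilobase of exon) of 233 in day 1 WT against 368 in day 1 Bcl3-/- libraries. Next in day 1 WT came Acly, which makes cytosolic acetyl-CoA from citrate, at an RPKM of 82.8, Hmgcs1, which makes HMG-CoA, at 82.0, Me1, which supplies NADPH, at 80.9, and Cyp51, the lanosterol demethylase, at 78.4. The lowest was Tm7sf2, a sterol reductase, at 1.82, followed by the acetyl-CoA synthetase Acss2 at 3.28. The deposited FPKM put 33 of 35 members beyond the replicate SD of the RPKM, with a ratio between 1.05 and 11.5, highest for Fdps, and the source of the difference was not tested. The order changed with the unit. By FPKM in day 1 WT, Fdps (205) and Msmo1 (145) came next after Scd2 (244) and Stard4 (8.98) was second lowest, and in day 3 WT Fdps (292) and Msmo1 (287) were above Scd2 (278). Exons of Fdps overlap another gene on the same strand over 26.7% of their length, and those of Tm7sf2 over 12.1%. Those of Fdft1 overlap a gene on the opposite strand over 18.3%, those of Scap over 13.2% and those of Hmgcs1 over 12.1%, and those of Lbr overlap genes on both strands over 10.7%. Reads in these stretches cannot be assigned with certainty in a library without strand, so the levels of these 6 genes are less certain.

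Both branches differed between the genotypes in the same direction on each day, and the gap between the branches shifted between the days. The level of a branch is the mean log2 CPM of its genes, set to 0 at the mean of day 1 WT. The sterol enzymes stood at -0.27, -0.03 and 0.30 in the 3 day 1 WT libraries, at 0.60, 0.57 and 0.58 in day 1 Bcl3-/-, at 0.69, 0.74 and 0.78 in day 3 WT and at 0.57, 0.31 and 0.23 in day 3 Bcl3-/- libraries. The fatty acid genes stood at -0.22, -0.01 and 0.23 in day 1 WT, at 0.52, 0.62 and 0.52 in day 1 Bcl3-/-, at 0.41, 0.21 and 0.26 in day 3 WT and at 0.04, -0.17 and 0.01 in day 3 Bcl3-/- libraries. Both branches were thus higher in Bcl3-/- than in WT libraries on day 1 and lower on day 3, with no overlap on either day. The sterol branch minus the fatty acid branch was 0.00 ± 0.06 (SD, n = 3) in WT against 0.03 ± 0.07 in Bcl3-/- libraries on day 1, and 0.44 ± 0.14 against 0.41 ± 0.17 on day 3. The genotypes overlapped in this difference on both days, and the days did not overlap in either genotype. Among the libraries of a group, day 1 WT was spread most: replicate 1 was lowest for 30 of the 36 members and replicate 3 highest for 35. The summed osteoblast markers ran in the same order there, at 34100, 44400 and 50200 CPM in replicates 1, 2 and 3, and their part in the spread was not tested.

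**Figure D1:**
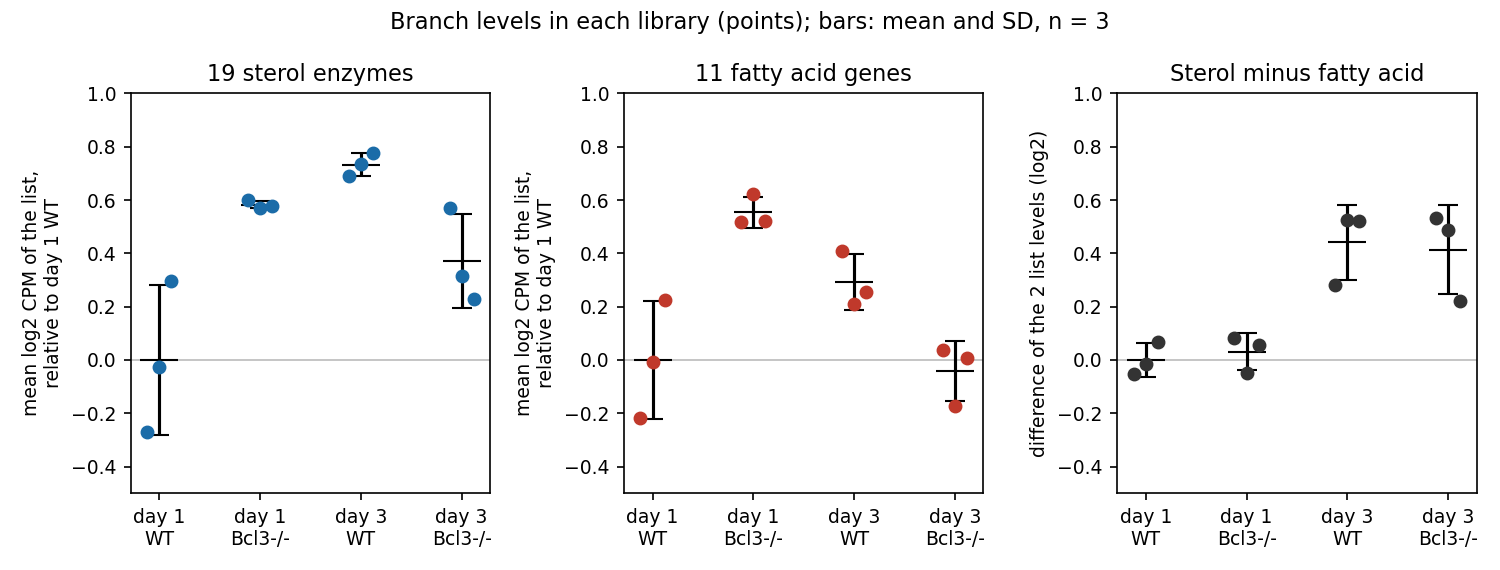
Level of the 19 sterol enzymes (left), of the 11 fatty acid genes (middle) and their difference (right) on a log2 scale relative to the mean of day 1 WT (vertical axis), in the 4 groups. Points are the 12 libraries and bars the mean and SD (n = 3); the difference sits between -0.05 and 0.08 in all day 1 libraries and between 0.22 and 0.53 in all day 3 libraries.

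The highest group also differed between the branches. Of the 19 sterol enzymes, 13 had their highest mean CPM in day 3 WT, 5 in day 1 Bcl3-/- and 1, Lbr, in day 1 WT. Some of these means were close. Mvk had 82.0 CPM in day 3 WT and 81.9 CPM in day 1 Bcl3-/- libraries, and Lss 165 and 164 CPM. Day 3 WT was not tested against day 1 Bcl3-/-. Of the 11 fatty acid genes, 10 had it in day 1 Bcl3-/- and 1, Me1, in day 1 WT, and none in day 3 WT. Day 1 WT held the lowest mean for 18 of 19 sterol enzymes, though Lss had 106 CPM in both day 1 WT and day 3 Bcl3-/- libraries. The lowest mean of the fatty acid genes was in day 3 Bcl3-/- for 6, in day 1 WT for 4 and in day 3 WT for 1.

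On day 1, 16 of the 19 sterol enzymes were higher in Bcl3-/- than in WT libraries at an edgeR adjusted p under 0.05 and none was lower, beside 9.02% of all tested genes higher and 6.36% lower. Their median log2 fold change was 0.56, and that of all genes 0.002. The groups did not overlap for 17 of them, with the Bcl3-/- libraries higher, beside 19.4% of all genes. In the mevalonate arm, Hmgcs1 had 306, 364 and 460 CPM in WT against 608, 611 and 584 CPM in Bcl3-/- libraries. Every Bcl3-/- library was above every WT library, and the log2 fold change was 0.67 (SE 0.12, adjusted p = 0.00384). Mvd, which makes isopentenyl diphosphate, was at 23.0, 33.3 and 44.4 CPM in WT against 62.1, 56.0 and 59.8 CPM in Bcl3-/- libraries, a log2 fold change of 0.81 (SE 0.18, adjusted p = 0.012). Acat2, Mvk, Idi1 and Fdps of the same arm were also called, between 0.50 and 0.66, and Pmvk, the phosphomevalonate kinase, was not, at 0.36 (SE 0.15, adjusted p = 0.125).

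In the squalene and sterol arm, 10 of 12 enzymes were higher on day 1. Tm7sf2 had the largest fold change of the sterol enzymes, from 6.51, 7.22 and 10.3 CPM in WT to 19.5, 16.6 and 17.3 CPM in Bcl3-/- libraries, or 1.15 on the log2 scale (SE 0.18, adjusted p = 0.00175). Dhcr7, which completes cholesterol by reducing 7-dehydrocholesterol, went from 49.5, 55.0 and 82.3 CPM to 109, 116 and 109 CPM, with a log2 fold change of 0.84 (SE 0.15, adjusted p = 0.00451). Fdft1, Sqle, Lss, Cyp51, Msmo1, Nsdhl, Ebp and Sc5d were called between 0.42 and 0.65. Lbr, a protein of the inner nuclear membrane that also has sterol reductase activity, overlapped between the groups, with 141, 132 and 142 CPM in WT against 123, 135 and 134 CPM in Bcl3-/- libraries. Hsd17b7, at 0.27 (SE 0.10, adjusted p = 0.0913), did not pass the test. Single libraries moved the count of 16: it was 7 when replicate 1 of day 1 WT was left out and 4 when replicate 2 was, and it was 9, 8 and 9 when replicates 1, 2 and 3 of day 1 Bcl3-/- were left out in turn, and in none of these was an enzyme called lower. Hmgcs1, Cyp51, Tm7sf2 and Dhcr7 passed in every alternative run and without each library.

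Of the 6 regulators, Insig1, Srebf2 and Srebf1 were higher on day 1 and none was lower, beside 9.02% of all genes higher and 6.36% lower. Insig1, itself a target of SREBP, had 101, 124 and 157 CPM in WT against 201, 191 and 192 CPM in Bcl3-/- libraries, a log2 fold change of 0.61 (SE 0.14, adjusted p = 0.0139). Srebf2 was at 0.41 (SE 0.10, adjusted p = 0.014) and Srebf1 at 0.34 (SE 0.09, adjusted p = 0.02). Scap, at 0.15 (SE 0.09, adjusted p = 0.313), Insig2, at 0.01 (SE 0.07, adjusted p = 0.962), and the sterol carrier Stard4, at 0.51 (SE 0.17, adjusted p = 0.064), did not pass. The 3 calls fell to 0 without day 1 WT replicate 1 or 2, to 1 without day 1 Bcl3-/- replicate 1 and to 2 without day 1 Bcl3-/- replicate 2 or 3.

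Of the 11 fatty acid genes, 8 were higher on day 1 and none lower, beside the same 9.02% of all genes higher, with a median log2 fold change of 0.59. Acss2 had 23.2, 29.5 and 47.2 CPM in WT against 76.3, 78.8 and 74.1 CPM in Bcl3-/- libraries, a log2 fold change of 1.19 (SE 0.22, adjusted p = 0.00524). Scd1, which puts the first double bond into stearate and palmitate, had 147, 206 and 272 CPM in WT against 406, 446 and 426 CPM in Bcl3-/- libraries, or 1.03 (SE 0.18, adjusted p = 0.00449). Neither gene had a WT library within the range of the Bcl3-/- libraries. Fads2, the Δ-6 desaturase of polyunsaturated fatty acids, was at 92.8, 108 and 132 CPM in WT against 177, 196 and 187 CPM in Bcl3-/- libraries (0.75, SE 0.11, adjusted p = 0.00159). Acly, Acaca, Elovl6, Scd2 and Fads1 were called between 0.32 and 0.66. The fatty acid synthase gene Fasn overlapped, with 410, 459 and 511 CPM in WT against 491, 582 and 511 CPM in Bcl3-/- libraries, and its 0.20 (SE 0.11, adjusted p = 0.251) did not pass. The elongase gene Elovl5, at 0.18 (SE 0.06, adjusted p = 0.062), and Me1, at -0.17 (SE 0.07, adjusted p = 0.109), did not pass either. The count of 8 stayed between 7 and 9 without any one library, and Acly, Acss2, Elovl6, Scd1, Scd2, Fads1 and Fads2 passed in every alternative run. The summed adipocyte markers were also higher on day 1, at 46.4 to 67.6 CPM in WT and 114 to 136 CPM in Bcl3-/- libraries. Lpl had the largest share of this sum, at means of 21.7 CPM in WT and 76.1 CPM in Bcl3-/- libraries. Of 7 tested, 6 had a positive fold change and 3, Lpl, Lipe and Cebpa, were called. Cidec and Lep were at 0 and Adipoq, Plin1, Retn and Cfd near 0. The summed osteoblast markers were higher too, at 34100 to 50200 CPM in WT and 59100 to 62200 CPM in Bcl3-/- libraries, with 4 of 10 called higher and 1 lower. The part of these markers in the lipid genes was not tested.

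**Figure D2:**
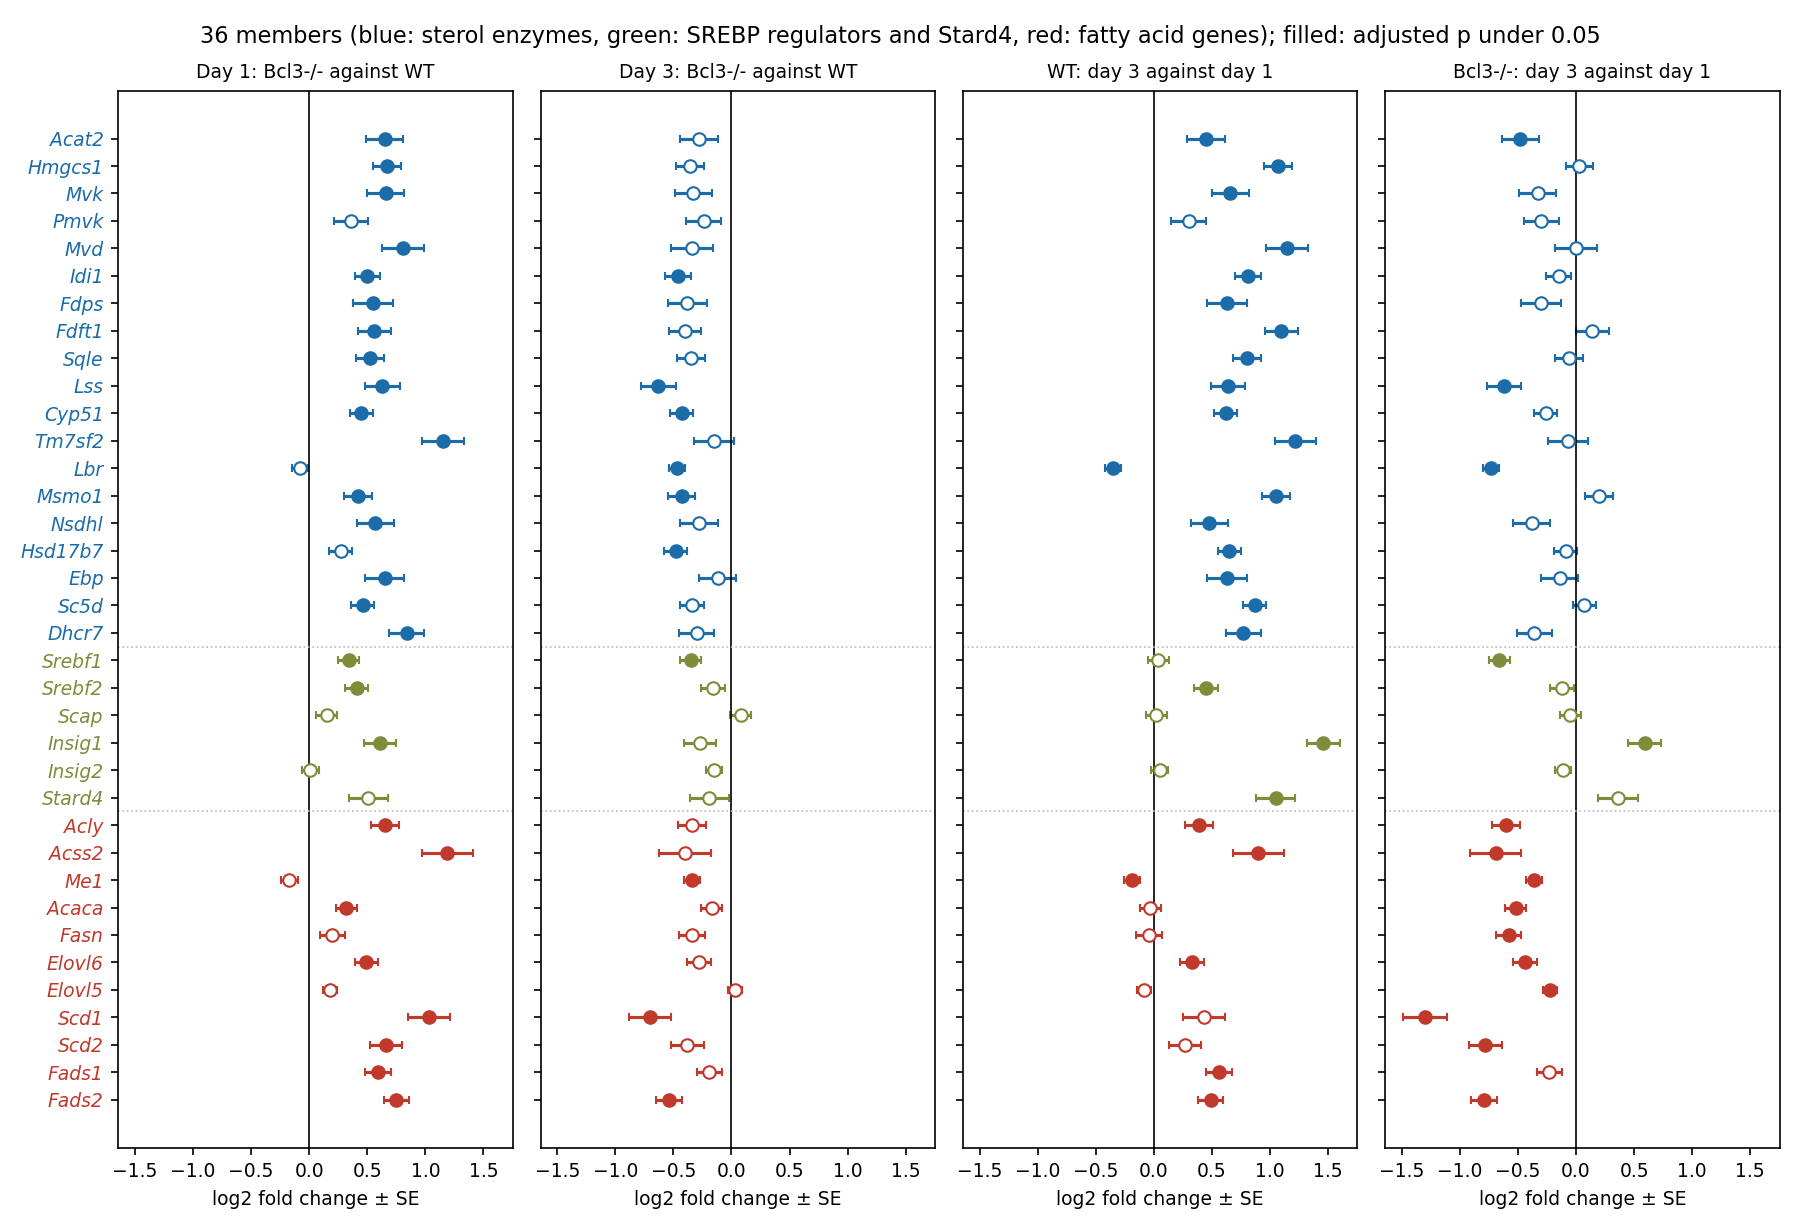
Log2 fold change and SE (horizontal axis) of each of the 36 members (rows) in the comparison of Bcl3-/- with WT on day 1 and on day 3 and of day 3 with day 1 in each genotype. Filled points passed an adjusted p under 0.05; on day 1 the filled points lie to the right of 0 for 27 members, and on day 3 to the left of 0 for 10.

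On day 3 the direction was the opposite one. Of the 19 sterol enzymes, 6 were lower in Bcl3-/- than in WT libraries and none higher, beside 5.66% of all genes lower and 4.78% higher, and the median log2 fold change was -0.35 against -0.002 for all genes. The groups did not overlap for 12 of them, with the Bcl3-/- libraries lower, beside 15.6% of all genes. Lss, the lanosterol synthase, had 179, 155 and 160 CPM in WT against 124, 96.1 and 98.4 CPM in Bcl3-/- libraries, a log2 fold change of -0.63 (SE 0.15, adjusted p = 0.0225). Lbr had 119, 106 and 101 CPM in WT against 79.2, 75.7 and 80.8 CPM in Bcl3-/- libraries, or -0.47 (SE 0.07, adjusted p = 0.00297). For both genes every Bcl3-/- library was below every WT library. Hsd17b7, Idi1, Cyp51 and Msmo1 were called between -0.48 and -0.43, and Hmgcs1, at -0.36 (SE 0.12, adjusted p = 0.0791), was not. The count of 6 was 2 without day 3 WT replicate 1 and 1 or 3 without day 3 Bcl3-/- replicate 2 or 3, and only Lbr passed in every alternative and without each library. Day 3 Bcl3-/- replicate 1 was the highest of its group for 18 of the 19 sterol enzymes.

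Among the fatty acid genes, Scd1, Fads2 and Me1 were lower on day 3 and none was higher, beside the same 5.66% of all genes lower, with a median of -0.34. Scd1 had 328, 255 and 258 CPM in WT against 196, 158 and 163 CPM in Bcl3-/- libraries, a log2 fold change of -0.70 (SE 0.18, adjusted p = 0.0343). Fads2 had 171, 147 and 149 CPM in WT against 117, 100 and 105 CPM in Bcl3-/- libraries, or -0.54 (SE 0.11, adjusted p = 0.0112). Me1, at -0.34 (SE 0.07, adjusted p = 0.00774), was the only one of the 3 that had not been called on day 1. The groups did not overlap for 8 of the 11 genes, with the Bcl3-/- libraries lower, beside 15.6% of all genes. The 3 calls became 1 without day 3 WT replicate 1 or day 3 Bcl3-/- replicate 2. Srebf1 was the only regulator called on day 3, with 99.9, 83.0 and 82.8 CPM in WT against 68.5, 67.7 and 72.2 CPM in Bcl3-/- libraries, a log2 fold change of -0.35 (SE 0.09, adjusted p = 0.0259). This call was lost without day 3 WT replicate 1 or day 3 Bcl3-/- replicate 1 or 2, and in 3 alternatives, a fit on the day 3 libraries alone and both unfiltered fits on FPKM, with log2 fold changes between -0.45 and -0.25 throughout.

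On day 3 the adipocyte markers summed to 77.8 to 135 CPM in WT and 257 to 321 CPM in Bcl3-/- libraries. Lpl again had the largest share, at means of 57.0 CPM in WT and 226 CPM in Bcl3-/- libraries. Of 7 tested, 6 had a positive fold change and Pparg, Lpl and Cebpa were called higher, beside 4.78% of all genes. Of the 10 osteoblast markers, Bglap at 2.33 (SE 0.38, adjusted p = 0.00349), Bglap2 at 1.91 (SE 0.33, adjusted p = 0.00479) and Alpl at 1.77 (SE 0.23, adjusted p = 0.00211) were higher and Spp1 at -1.32 (SE 0.16, adjusted p = 0.00129) was lower. These calls stood beside 4.78% of all genes higher and 5.66% lower. Macrophage markers summed to 787 to 1190 CPM in WT and 492 to 979 CPM in Bcl3-/- libraries on day 3. Lyz2 had the largest share, at means of 618 CPM in WT and 481 CPM in Bcl3-/- libraries. Of the 12, Cx3cr1 and Csf1r were lower, beside 5.66% of all genes. Of 12 dividing cell markers 5 were lower in Bcl3-/- libraries on day 1 and 10 on day 3, beside 6.36% and 5.66% of all genes, with sums of 2020 to 2160 against 1690 to 1780 CPM on day 1 and 1090 to 1240 against 843 to 849 CPM on day 3. The part of these cells in the lipid genes was not tested.

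**Figure D3:**
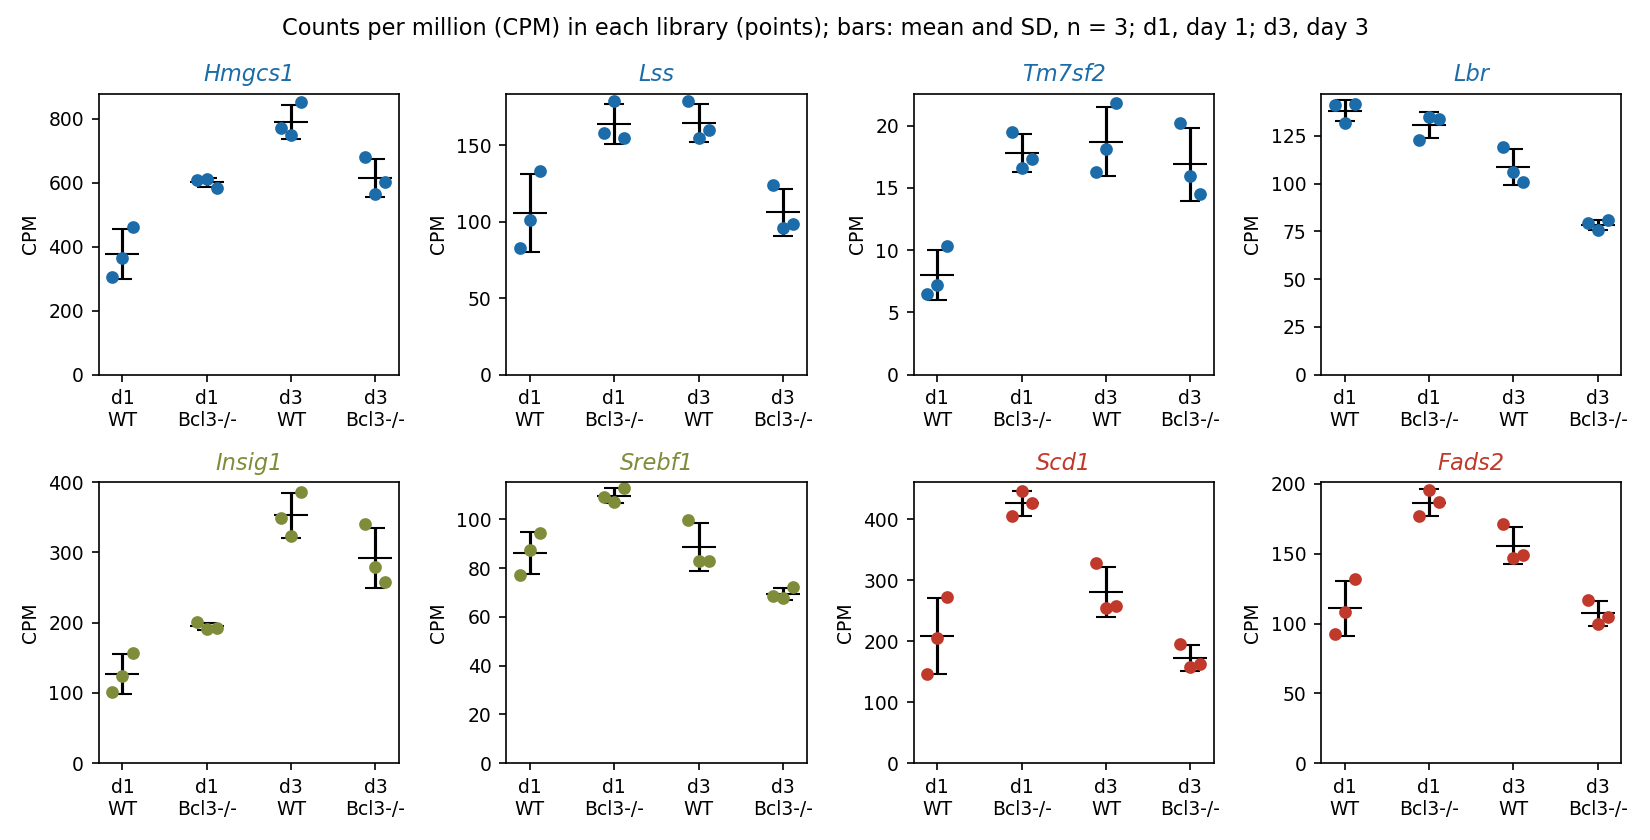
CPM (vertical axis, from 0) of 4 sterol enzymes, 2 regulators and 2 fatty acid genes in the 12 libraries, by day and genotype. Points are libraries and bars the mean and SD (n = 3); Hmgcs1 and Insig1 are highest in day 3 WT, Tm7sf2 is lowest in day 1 WT, Scd1 and Fads2 are highest in day 1 Bcl3-/-, and Lbr is lowest in day 3 Bcl3-/- libraries.

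In WT, between day 1 and day 3, 17 of 19 sterol enzymes rose and 1, Lbr, fell, beside 20.6% of all genes higher and 17.9% lower, with a median log2 fold change of 0.66 against 0.001. This comparison shares the day 1 WT libraries with that of the genotypes on day 1. Hmgcs1 went from 306, 364 and 460 to 770, 750 and 851 CPM, a log2 fold change of 1.07 (SE 0.12, adjusted p = 4.46e-05). Msmo1, the sterol methyl oxidase, went from 185, 215 and 272 to 439, 466 and 484 CPM (1.05, SE 0.12, adjusted p = 3.54e-05), and Fdft1, the squalene synthase, from 82.2, 104 and 122 to 205, 229 and 226 CPM (1.10, SE 0.14, adjusted p = 8.44e-05). All 3 day 3 libraries were above all day 1 libraries for each of these genes. Lbr fell by 0.35 on the log2 scale (SE 0.07, adjusted p = 0.00258), and Pmvk was not called, at 0.30 (SE 0.15, adjusted p = 0.134). With culture as a block Pmvk passed too, at 0.31 (adjusted p = 0.0433), and no other call of a member in WT changed. Insig1 had the largest rise of the 36 members, from 101, 124 and 157 to 349, 323 and 386 CPM, or 1.46 (SE 0.14, adjusted p = 1.92e-05). Stard4, at 1.05 (SE 0.17, adjusted p = 0.000493), and Srebf2, at 0.45 (SE 0.10, adjusted p = 0.00291), rose as well, and Srebf1 did not pass, at 0.04 (SE 0.09, adjusted p = 0.785).

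Of the 11 fatty acid genes, 5 were higher and 1 lower over the same interval in WT, beside 20.6% of all genes higher and 17.9% lower, with a median of 0.33. Acss2 had the largest rise, from 23.2, 29.5 and 47.2 to 63.9, 56.1 and 67.0 CPM (0.90, SE 0.22, adjusted p = 0.00736). Fads1 rose by 0.56 (SE 0.11, adjusted p = 0.00131), Fads2 by 0.49, Acly by 0.39 and Elovl6 by 0.33, and Me1 fell by 0.19 (SE 0.07, adjusted p = 0.0401). Fasn, at -0.04 (SE 0.11, adjusted p = 0.811), Acaca, at -0.03, and Elovl5, at -0.08, did not pass, nor did Scd1, at 0.43 (SE 0.18, adjusted p = 0.088), and Scd2, at 0.27. The count of 6 was 3 when either replicate 1 of day 1 WT or replicate 3 of day 3 WT was left out. Acss2, Fads1 and Fads2 passed in every alternative run. Over the same days 11 of 12 dividing cell markers fell and 10 of 12 macrophage markers rose in WT. In Bcl3-/- libraries all 12 dividing cell markers fell, 8 macrophage markers rose and 1, Cx3cr1, fell. Of all genes, 16.2% were higher and 17.1% lower over time in Bcl3-/- libraries. The osteoblast markers summed to 34100 to 50200 CPM on day 1 and 71600 to 76800 CPM on day 3 in WT, with 4 called higher and 2 lower, and to 59100 to 62200 CPM and 70800 to 77900 CPM in Bcl3-/- libraries, with 4 higher and 3 lower. The adipocyte markers summed to 46.4 to 67.6 CPM on day 1 and 77.8 to 135 CPM on day 3 in WT, and to 114 to 136 CPM and 257 to 321 CPM in Bcl3-/- libraries, with 3 of 7 tested called higher in each. Lpl had the largest share of the adipocyte sum in all 4 groups. The part of these markers in the lipid genes was not tested.

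Over time in the libraries labelled Bcl3-/-, 10 of 11 fatty acid genes fell and none rose, beside 17.1% of all genes lower and 16.2% higher, with a median log2 fold change of -0.58. Scd1 went from 406, 446 and 426 to 196, 158 and 163 CPM, a log2 fold change of -1.30 (SE 0.19, adjusted p = 0.000404). Fads2 went from 177, 196 and 187 to 117, 100 and 105 CPM (-0.79, SE 0.11, adjusted p = 0.000274) and Scd2 from 1960, 2130 and 1950 to 1210, 1030 and 1280 CPM (-0.78, SE 0.14, adjusted p = 0.00149). For these genes each day 3 library was below each day 1 library. Fasn fell by 0.58 (SE 0.11, adjusted p = 0.00149), Acaca by 0.52 and Acly by 0.60. Fads1 was the gene not called, at -0.23 (SE 0.11, adjusted p = 0.124). The count of 10 was 9 or 10 without any one library.

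Of the 19 sterol enzymes, 3 fell over time in the Bcl3-/- libraries and none rose, with a median of -0.15. This share is near the 17.1% of all genes that fell. These were Lss, at -0.62 (SE 0.15, adjusted p = 0.00857), Lbr, at -0.73 (SE 0.07, adjusted p = 2.1e-05), and Acat2, at -0.48 (SE 0.16, adjusted p = 0.0406). Hmgcs1 had 608, 611 and 584 CPM on day 1 and 679, 563 and 603 CPM on day 3, which overlap, and its log2 fold change was 0.03 (SE 0.12, adjusted p = 0.863). With culture as a block 8 sterol enzymes fell, with Cyp51, Dhcr7, Fdps, Mvk and Pmvk added at log2 fold changes between -0.37 and -0.26. The count of 3 was also 5 or 7 without day 1 WT replicate 1 or 3 and 7 without day 3 Bcl3-/- replicate 1. Insig1 rose by 0.59 (SE 0.14, adjusted p = 0.00781) and Srebf1 fell by 0.66 (SE 0.09, adjusted p = 0.000178), from 109, 107 and 113 to 68.5, 67.7 and 72.2 CPM. Stard4, at 0.36 (SE 0.17, adjusted p = 0.122), passed with culture as a block, at 0.35 (adjusted p = 0.0467).

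**Figure D4:**
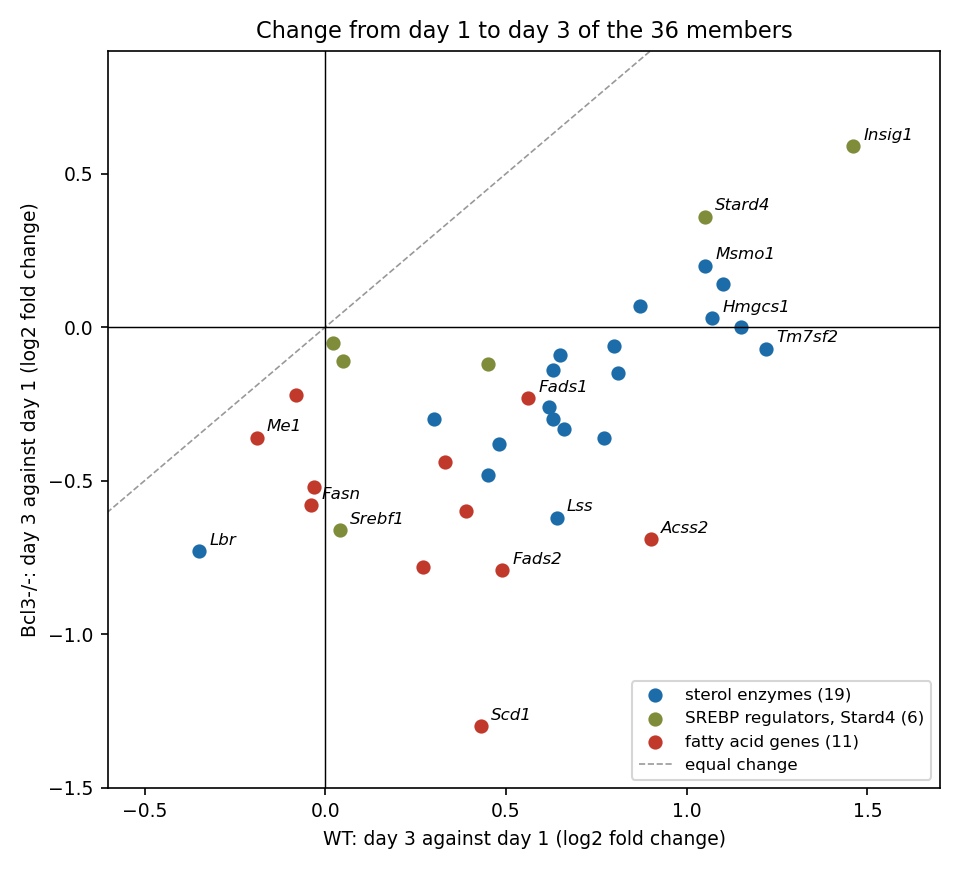
Log2 fold change of day 3 over day 1 in WT (horizontal axis) and in Bcl3-/- libraries (vertical axis) for the 36 members; points are genes, and the dashed line marks equal change. All 36 points lie below the line; the sterol enzymes lie to the right, between 0.30 and 1.22 in WT except Lbr at -0.35, and the fatty acid genes lie between -1.30 and -0.22 in Bcl3-/- libraries.

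In the interaction of genotype and time, which tests that difference, 11 of 19 sterol enzymes, 7 of 11 fatty acid genes and Srebf1 were called, all with a lower change in the Bcl3-/- libraries, beside 0.766% of all genes lower and 0.153% higher. All 36 members had a negative value, with a median of -0.86 against -0.014 for all genes. The values were largest for Scd1, at -1.73 (SE 0.26, adjusted p = 0.0226), and Acss2, at -1.59 (SE 0.31, adjusted p = 0.0439), and smallest for Scap, at -0.07 (SE 0.13, adjusted p = 0.898). The interaction uses the same day 1 and day 3 libraries as the 4 comparisons above and is no separate evidence. The sterol count of 11 was 0 when replicate 1 or 2 of WT on either day, any replicate of day 1 Bcl3-/-, or replicate 2 or 3 of day 3 Bcl3-/- was left out, with 18 or 19 enzymes still at an unadjusted p under 0.05 by edgeR, and 4 when replicate 3 of day 3 WT was. Over all genes those fits called between 3 and 76 in place of 150. The fatty acid count of 7 was 0 when replicate 3 of day 1 Bcl3-/- was left out, and 2 when replicate 1 of day 1 WT or replicate 3 of day 3 WT was. It was 1 when replicate 2 of day 1 WT, replicate 1 or 2 of either day 1 Bcl3-/- or day 3 WT, or replicate 2 or 3 of day 3 Bcl3-/- was left out, and 9 to 11 fatty acid genes were at an unadjusted p under 0.05 in all of these. With culture as a block Mvk, Mvd, Fdps, Ebp and Insig1 were gained and Lss, Scd1 and Scd2 lost.

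Of 77 tested genes in 7 lists of the wider pathway, 16 were higher and 3 lower on day 1, beside 9.02% and 6.36% of all genes, and 4 were higher and 9 lower on day 3, beside 4.78% and 5.66%. Their medians were 0.04 and 0.02. In the oxysterol and LXR list, 4 of 9 genes were higher on day 1, among them Cyp7b1, an oxysterol hydroxylase, at 1.67 (SE 0.17, adjusted p = 0.000291), and Lpcat3, a phospholipid acyltransferase, at 0.42 (SE 0.09, adjusted p = 0.00666). On day 3, 2 of these 9 were higher and 2 lower. Cyp7b1 was still higher, at 0.64 (SE 0.16, adjusted p = 0.0217). Ch25h, which makes 25-hydroxycholesterol, was lower, at -0.98 (SE 0.13, adjusted p = 0.00193), as was Lpcat3, at -0.32 (SE 0.09, adjusted p = 0.0321). Of 10 genes of sterol uptake, transport and esterification, 2 were higher on day 1 and 1, Soat1, was lower, at -0.53 (SE 0.12, adjusted p = 0.00999). On day 3, 2 of the 10 were lower and none higher, with Lrp8, a lipoprotein receptor, at -1.10 (SE 0.18, adjusted p = 0.00458). Genes of fatty acid elongation, activation and storage were higher for 6 of 20 and lower for 1 on day 1, with Acsl3, an acyl-CoA synthetase, at 0.61 (SE 0.10, adjusted p = 0.00185), and higher for 1 and lower for 4 on day 3.

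Genes that process SREBP or degrade its partners, such as Mbtps1 and Mbtps2, and genes of non-sterol isoprenoid synthesis, 8 each, had no call between the genotypes on either day by edgeR. At an unadjusted p under 0.05 these were 1 and 0 genes on day 1 and 1 and 2 on day 3. Of 6 genes of NADPH supply, Idh1, the cytosolic isocitrate dehydrogenase, was higher on day 1 at 0.66 (SE 0.10, adjusted p = 0.00185), and Pgd, of the pentose phosphate path, was lower on day 1 at -0.23 and on day 3 at -0.34 (SE 0.07, adjusted p = 0.00883). Of the 16 genes of fatty acid oxidation, 3 were higher and none lower in Bcl3-/- than in WT libraries on day 1, beside 9.02% and 6.36% of all genes. On day 3 only Acaa2 was higher, at 0.44 (SE 0.12, adjusted p = 0.0352), and none was lower, beside 4.78% and 5.66%. Over time in WT, 10 of the 16 were higher and none lower, beside 20.6% of all genes higher. Over time in Bcl3-/- libraries 9 were higher and none lower, beside 16.2%. Cpt1a, which brings fatty acids into mitochondria, rose by 0.98 (SE 0.10) in WT and by 0.91 (SE 0.10, adjusted p = 3.24e-05) in Bcl3-/- libraries.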

How the data were processed

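PolyA RNA of 12 libraries was amplified with SMART-seq v4, which does not mark strand, and sequenced as paired ends on an Illumina instrument. Per the submitters' notes, the authors trimmed reads with Trim Galore, aligned them to mm10 with TopHat2, counted them with HTSeq and computed FPKM with Cufflinks, with versions not given in the sources used here. The deposited counts are raw and cover 49585 genes. A further 5 entries that name no gene held 12.3 to 14.7% of the counts and were left out. The deposited FPKM were used for alternatives only, with 49318 genes after leaving out 49 entries with several values and 1 stray header. Mvd was not used in FPKM. Libraries held 20009732 to 41953891 counts, with a median of 31792039, and among 66 pairs of libraries none agreed within sampling noise.

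The main fit was edgeR 4.0.16 (R 4.3.3) with TMM factors, its default filter on low counts, 4 group means and quasi-likelihood tests over 16318 genes, with Benjamini-Hochberg adjustment and a threshold of 0.05. Log2 CPM used a prior count of 2, and the common biological coefficient of variation came to 13.49%. Exon lengths and overlaps came from GENCODE M21, to which 49326 identifiers matched. Alternatives used DESeq2 1.42.0, limma 3.58.1, other scaling factors and filters, FPKM, blocks and leaving out each library. The method was also run on simulated counts drawn without a culture effect, and the recovery is not reported here. The members and lists were chosen with earlier results of these data known. In the additional lists up to 3 genes with the smallest adjusted p over the comparisons, or in a comparison, were named, and Mbtps1 and Mbtps2 only as examples of their list.

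Library codes recur on both days and were taken to mark the same culture, so the days are paired by culture. Deviations of the same culture on both days correlated at r = 0.243 to 0.327 in WT and at -0.157 to -0.017 in Bcl3-/- libraries. Between the genotypes equal numbers mark no shared source, with r = -0.065 to 0.044 on day 1 and 0.058 to 0.214 on day 3. A culture can hold cells of several pups. The main fit has no term for culture, and its p-values use the spread between the 3 libraries within each of the 4 groups. It thus treats the day 1 and day 3 libraries of a culture as independent. The pairing enters by itself only in the alternative with culture as a block. The block by replicate number also links the days of a culture, but it ties equal numbers of both genotypes as well.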

Additional observations from a re-analysis of the deposited data

Results flagged for a closer look

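The change from day 1 to day 3 differed between the genotypes for 19 of the 36 members by the interaction term (edgeR, 3 libraries per group), each lower in Bcl3-/- libraries. Of all tested genes, 0.766% were lower and 0.153% higher in this term. Among the sterol enzymes the log2 interaction was -1.29 for Tm7sf2 (SE 0.25), -1.27 for Lss (SE 0.22), -1.14 for Dhcr7 (SE 0.22), -1.04 for Hmgcs1 (SE 0.17), -0.96 for Idi1 (SE 0.15), -0.96 for Fdft1 (SE 0.19), -0.88 for Cyp51 (SE 0.14), -0.87 for Sqle (SE 0.17), -0.85 for Msmo1 (SE 0.16), -0.80 for Sc5d (SE 0.15) and -0.74 for Hsd17b7 (SE 0.14), with edgeR adjusted p between 0.0224 and 0.0439. Of these 11, Lss rose by 0.64 in WT and fell by 0.62 in Bcl3-/- libraries, and the other 10 passed over time in WT and not in Bcl3-/- libraries in the fit without a block. Among the fatty acid genes it was -1.73 for Scd1 (SE 0.26), -1.59 for Acss2 (SE 0.31), -1.29 for Fads2 (SE 0.16), -1.05 for Scd2 (SE 0.20), -0.99 for Acly (SE 0.18), -0.79 for Fads1 (SE 0.15) and -0.77 for Elovl6 (SE 0.14), with edgeR adjusted p between 0.0137 and 0.0439. Acss2, Fads2, Acly and Elovl6 rose in WT and fell in Bcl3-/- libraries. For Srebf1 it was -0.69 (SE 0.13, edgeR adjusted p = 0.0334), with 0.04 over time in WT and -0.66 in Bcl3-/- libraries. None of the 19 calls held without each library in turn.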

How the results depend on the processing

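No member's call changed direction in any of the 12 alternatives or without any 1 of the 12 libraries. The calls that passed in all of them in which the gene was measured numbered 11 of 27 for the genotypes on day 1, 1 of 10 on day 3, 20 of 27 over time in WT, 12 of 15 over time in Bcl3-/- libraries and 0 of 19 for the interaction. The 20 over time in WT include Mvd, which was not tested in the alternatives on FPKM. The 16 sterol enzymes called on day 1 were 10 with no count filter, 7 on unfiltered log2(FPKM + 1), 9 on unfiltered log2(FPKM + 0.1) and 13 of 18 on filtered log2(FPKM + 1). The 3 sterol enzymes called over time in Bcl3-/- libraries were 7 in a fit on those libraries alone, 8 with the culture as a replicate block and 8 on filtered FPKM. For the interaction, the 11 sterol enzymes were 17 by DESeq2, 5 with the replicate number as an additive block and 0 on either unfiltered FPKM scale, and the 7 fatty acid genes were 4 with that block and 0 on either unfiltered FPKM scale. On unfiltered log2(FPKM + 1), where 6 of 34735 genes were called by limma, 17 of 18 sterol enzymes and 8 of 11 fatty acid genes were at an unadjusted p under 0.05. The filter on the same scale left 15347 genes and 130 calls. With it, 11 of 18 sterol enzymes and 6 of 11 fatty acid genes were called. On counts with no count filter, 30749 genes were tested, and 9 of 19 sterol enzymes were called for the interaction. The cause of these differences was not tested. The block by culture changed no member's call beyond those given above, Stard4 on day 1 (0.53, adjusted p = 0.048) and Sc5d on day 3 (-0.34, adjusted p = 0.0478), both by limma-voom.

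Without 1 library, the sterol enzymes called ranged from 4 to 17 on day 1, from 1 to 9 on day 3, from 15 to 18 over time in WT, from 2 to 7 over time in Bcl3-/- libraries and from 0 to 16 for the interaction. The fatty acid genes ranged from 7 to 9, from 1 to 4, from 3 to 8, from 9 to 10 and from 0 to 8 in the same order. The median interaction stayed in these fits between -1.07 and -0.75 for the sterol enzymes and between -0.88 and -0.64 for the fatty acid genes.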
